A study of Rattus norvegicus with 15 samples.

Results

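The first 2 days of culture of rat alveolar epithelial cells were examined by setting arrays of cells cultured for 2 days (D2) against arrays of alveolar type 2 (AT2) cells at isolation (D0). The arrays were chosen by their day labels alone, 3 labelled D2 and 3 labelled D0, which makes 6 of the 15 arrays of the time course, and every one of the 22523 probes of the array was compared. D2 cells were AT2 cells of male rats kept in culture for 2 days with no further treatment, and D0 cells were AT2 cells of male rats that had not been cultured, so that both groups share the isolation from lung and carry no transgene or drug. The labels give neither the strain nor the age of the rats, nor the cell purification from which an array came. The other arrays, of later days, entered the fit and are otherwise used only to say whether a gain or loss of detection lasted. The labels do give the slide: each day had 2 arrays on slide 1, with the remaining D2 array on slide 2 and the remaining D0 array on slide 3, and slide and purification cannot be told apart. The study describes separate purifications of rat cells. It names technical duplicates for its human arrays only, and its methods, shared by both species, say that technical replicates were taken out. The labels tie no array to a purification, so p-values measure the spread between these arrays, part of which may be technical.

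AT2 cells are cuboidal and line the corners of the alveolus, where they make pulmonary surfactant, a film of phospholipid and surfactant proteins stored in lamellar bodies, and they renew the flat alveolar type 1 (AT1) cells through which gas diffuses. When AT2 cells are placed in culture they attach, spread and lose lamellar bodies while taking on features of AT1 cells. Isolation from tissue by enzymes is known to switch on immediate early genes, the transcription factors and feedback genes that respond to a stimulus without new protein synthesis, and cells that spread on a surface build stress fibres and lay down matrix.

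Signals were raw intensities of the beads of each probe, put on the log2 scale by variance stabilizing normalization (VSN), and every level below is such a log2 signal. Detection was read at a threshold of 0.01 for the detection p, which the scanner software gives against the negative controls of the same array. D2 arrays had 9090 to 9307 detected probes and D0 arrays 7615 to 8874, the lowest on slide 3. The lowest detected log2 signal was 6.29 to 6.38 on D2 arrays and 6.50 to 7.04 on D0 arrays. Raw log2 signals of a D2 and a D0 array correlated at a Pearson's r of 0.906 to 0.931 across probes, and those of 2 arrays of the same day at 0.974 to 0.993, where probes are not independent replicates. After VSN, r was 0.935 to 0.939 for a D2 and a D0 array on slide 1 and 0.896 to 0.912 for such pairs on different slides. For 2 arrays of the same day it was 0.982 to 0.989 on slide 1 and 0.943 to 0.963 on different slides. After VSN, arrays of the same day on different slides were thus little closer than D2 and D0 arrays within slide 1. In raw log2 signals they were clearly closer, at 0.974 to 0.982 against 0.927 to 0.931. Precision was limited by the number of arrays, and the median standard error of a change was 0.25 on the log2 scale. Arrays are listed in the order slide 1, slide 1 and the other slide for each day. In RNA from a mixed population, fewer cells of a type and less RNA per cell cannot be told apart.

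Of the 22523 probes, 5750 (25.5%) passed a Benjamini-Hochberg adjusted p of 0.05 in the limma fit with slide as a block. These were 3175 probes (14.1%) higher at D2 and 2575 (11.4%) lower. Read on 1 probe for each of 13337 named genes, the brightest, 18.1% of genes rose and 13.5% fell. Among the 5281 genes detected on all 6 arrays the shares were 30.2% and 21.1%. The gene lists below are to be read against both pairs of shares, and lists detected almost throughout against the latter. Changes of at least 1 on the log2 scale were about as many in both directions, 1627 higher and 1491 lower, whereas changes of at least 3 were 96 higher and 211 lower. The median log2 change was -0.024 over all probes and 0.105 over the 6901 probes detected on all 6 arrays. The D2 arrays did not overlap with the D0 arrays for 5158 of the called probes, and for 6832 (30.3%) of all probes. Of the called probes, 1572 were detected on no array of their dimmer day, so that only a lower bound of their fold is known, and 627 of these were detected on no array of either day and are given no fold. The list counts below include called genes undetected on both days. Where not said there, these were Pdgfb, Sesn2 and Hspa4 among those lower and Cdc25c, Rpl12, Gsta2 and Wnt3a among those higher. List medians also include changes of undetected genes. With bounds for genes undetected on their dimmer day, and no change where the brighter day was not fully detected either, some medians were smaller. They were -0.15 against -0.73 for the EGF list and -0.51 against -1.28 for the MHC class II list. For lung transcription factors the values were -0.10 against -0.41, and for glucocorticoid and cAMP genes -1.81 against -2.32. AT2, AT1 and cholesterol medians were unchanged. Where a probe was detected on only 1 or 2 arrays of its dimmer day, the change rests partly on signals below detection. Among the genes given below this holds at D2 for S100g, Lgi3, Vil1, Scgb3a2, Dusp5, Itga7, Trib3 and Bmp2, and at D0 for Wfdc1, Sema3e, Akap5, Krt17, Lamc1, Pxn, Mmp11, Ccl7, Oasl2, Mx2, Aqp4, Fads2, Eno1 and Egfr.

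The block of slide group could be examined directly, since slide 1 holds 2 arrays of each day. Of the probes called higher, 3164 of 3175 had the same sign of change on slide 1 alone and between the arrays of slides 2 and 3, with median changes of 0.95 and 1.18. Of the probes called lower, 2551 of 2575 kept their sign, with medians of -1.14 and -1.21. These values come from the arrays that entered the fit and are no independent test.

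**Figure D1:**
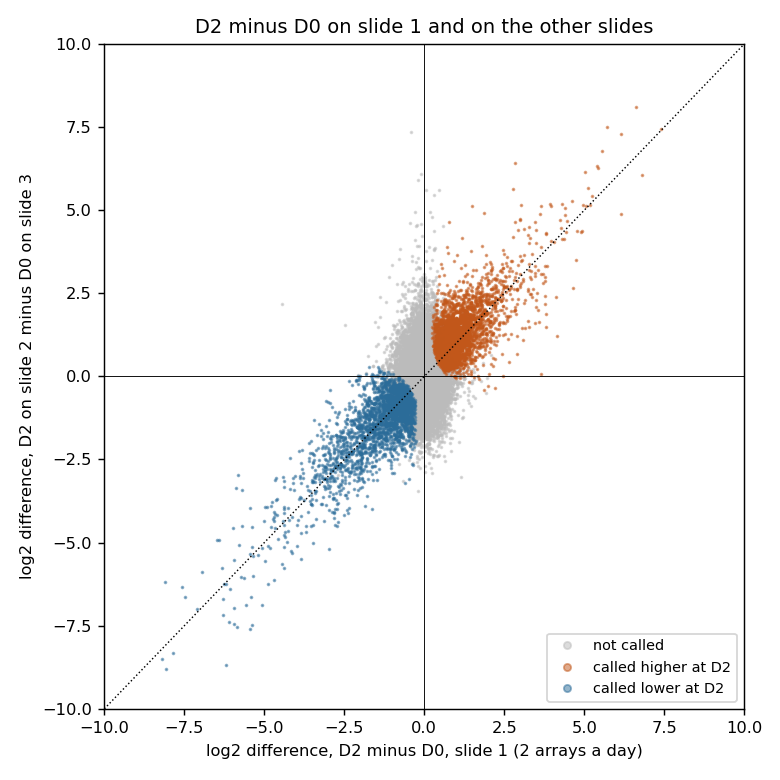
Log2 change from slide 1 (2 D2 and 2 D0 arrays, horizontal axis) against that between the D2 array of slide 2 and the D0 array of slide 3 (vertical axis), one point per probe. Orange points were called higher at D2 (3175), blue points lower (2575) and grey points were not called; the dotted line marks equal change, and nearly all coloured points lie in the quadrants where both changes have the same sign.

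The labelled cell type was clear in the D0 arrays, where the surfactant protein genes stood near the top of the signal range, and most AT2 genes fell by D2. Of 16 measured AT2 surfactant and lamellar body genes, 13 fell, 2 rose and 1 did not pass, with a median log2 change of -3.52, against a median of 0.005 over all named genes. The summed linear signal of the list was 54846 to 59702 on D2 arrays and 338150 to 403967 on D0 arrays. Sftpc, the most specific surfactant protein gene of AT2 cells, stood at 10.19, 10.44 and 8.38 on the D2 arrays, against 15.39, 15.36 and 15.25 on the D0 arrays. The 3 D0 arrays lay close together and far above every D2 array, and the D2 array of slide 2 was the lowest. The log2 change was -5.66 ± 0.50 (SE, adjusted p = 1.6e-06, n = 3 arrays per day, limma).

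Sftpa1, which encodes the collectin SP-A, was at 9.27, 9.32 and 8.78 at D2 and at 15.65, 15.53 and 15.47 at D0 (log2 change -6.43 ± 0.45, SE, adjusted p = 2e-07). Slc34a2, the sodium phosphate cotransporter of the AT2 apical membrane, had 7.77, 7.65 and 7.56 at D2, against 15.19, 15.16 and 14.19 at D0, a 146-fold lower level. S100g, a calcium-binding protein, showed the largest fall among the genes still detected at D2, with 7.37, 6.95 and 6.22 at D2 and 15.22, 15.23 and 15.02 at D0 (log2 change -8.31 ± 0.53, SE, adjusted p = 8.4e-08). The D2 values of S100g were at the edge of detection, on 2 of 3 arrays, while its D0 values were among the brightest of the array. Lgi3 was at 6.49, 6.43 and 4.30 at D2, the last undetected, and at 12.51, 12.63 and 11.69 at D0, and its log2 change of -6.54 ± 0.39 (SE) ran from -6.76 to -4.44 over the alternative settings. Pla2g1b, a secreted phospholipase A2, fell by 7.06 ± 0.24 (SE). Atp6v1c2, a subunit of the proton pump that acidifies organelles, was at 8.14, 8.16 and 8.20 at D2 and at 14.51, 14.30 and 14.45 at D0. Lpcat1, which makes the dipalmitoyl phosphatidylcholine of surfactant, and Cd36, a fatty acid transporter, fell less, by 2.63 ± 0.20 and 2.94 ± 0.28 (SE).

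The exceptions within the AT2 list were Slc6a14, an amino acid transporter, with 12.23, 12.32 and 12.54 at D2 and 11.06, 10.82 and 11.78 at D0 (log2 change 1.14 ± 0.17, SE, adjusted p = 0.00014), and Ctsh, a protease that processes surfactant protein precursors, at 0.74 ± 0.18 (SE, adjusted p = 0.00627). Every D2 array lay above every D0 array for both genes, although Ctsh lost its call under 5 of the alternative settings. Nkx2-1, the transcription factor of lung epithelium that drives surfactant genes, did not pass the test, with 10.09, 9.35 and 9.90 at D2 and 9.27, 9.20 and 8.83 at D0 (log2 change 0.68 ± 0.30, SE, adjusted p = 0.12). Every D2 array was above every D0 array for Nkx2-1, by little at the nearest pair.

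AT1 markers moved the other way but less uniformly. Of 25 measured, 12 rose, 2 fell and 11 did not pass (median log2 change 0.72). Aqp5, the water channel of AT1 cells, was at 10.64, 10.94 and 10.37 at D2 and at 8.67, 8.71 and 7.75 at D0 (log2 change 2.27 ± 0.21, SE, adjusted p = 3e-06). Clic5, a chloride channel protein that links membrane and cytoskeleton, stood at 12.56, 12.96 and 13.09 at D2, against 9.32, 9.93 and 8.66 at D0. Akap5, a kinase anchoring protein, and Sema3e, a secreted guidance ligand, rose by 4.04 ± 0.31 and 4.34 ± 0.25 (SE), and at D0 were detected on 1 and 2 arrays. For all 4 genes the gap between the days was wider than the spread within either day.

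Pdpn, the membrane glycoprotein used most widely as an AT1 marker, was bright on both days, at 14.91, 15.15 and 14.69 at D2 and at 14.30, 14.19 and 14.11 at D0 (log2 change 0.72 ± 0.15, SE, adjusted p = 0.00287). Its call was lost under 4 alternative settings. Hopx, a homeodomain cofactor of AT1 cells, did not pass at 14.34, 14.54 and 14.42 at D2 and 14.89, 14.74 and 14.82 at D0 (adjusted p = 0.0965). Its D2 arrays all lay below its D0 arrays, and it was called lower under 3 alternative settings. Cav1, the structural protein of caveolae, was detected on none of the D2 arrays and on 1 of the D0 arrays, so no level can be given from this probe. A second Cav1 probe was detected on 1 D2 array and no D0 array and was not called either, at a log2 change of 0.50 (adjusted p = 0.24). Cavin3, a coat protein of caveolae that is not on the list, was among the largest rises of the array, at 12.34, 12.98 and 12.49 at D2 and 8.25, 8.25 and 8.14 at D0. The 2 AT1 markers that fell were Cyp4b1, a cytochrome P450, by 4.36 ± 0.32, and Tspan8, a tetraspanin, by 1.02 ± 0.17 (SE).

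**Figure D2:**
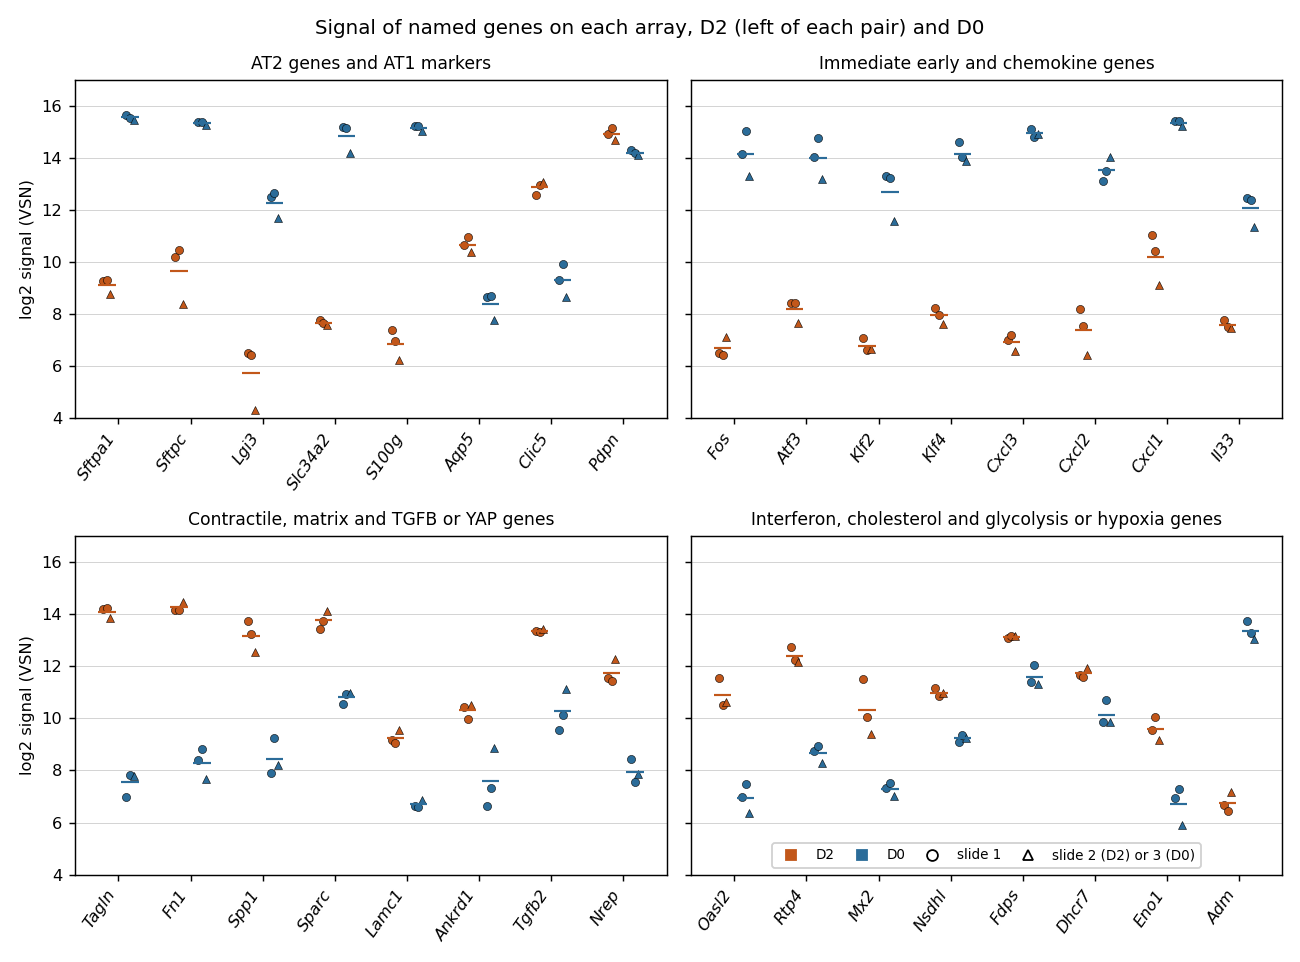
Log2 signal after VSN of 32 genes on each of the 6 arrays, D2 in orange on the left of each pair and D0 in blue on the right. Circles are arrays of slide 1, triangles the array of slide 2 (D2) or slide 3 (D0), and bars the mean of 3 arrays; the AT2, immediate early and chemokine genes sit lower at D2, as does Adm, and the AT1 markers, matrix, contractile, interferon and cholesterol genes sit higher.

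Immediate early genes fell almost without exception. Of 26 measured, 24 fell (92.3%) and none rose, with a median log2 change of -3.09, and 1 of those called, Nr4a1, was detected on no array. The 2 not called, Egr3 and Dusp2, were also undetected. Fos, a subunit of the AP-1 transcription factor, was at 6.51, 6.44 and 7.12 at D2 and at 14.14, 15.04 and 13.31 at D0 (log2 change -7.48 ± 0.36, SE, adjusted p = 9.2e-09). The 3 D2 arrays were just above the limit of detection, and the D0 arrays spread over more than the D2 arrays did while staying far above them. Klf4 and Klf2, zinc finger factors, and Atf3, a stress-induced factor, fell by 6.22 ± 0.24, 5.92 ± 0.31 and 5.81 ± 0.23 (SE). Nr4a3, an orphan nuclear receptor, and Maff, a small partner of AP-1 type factors, were lost from detection, at least 35.5-fold and at least 23.9-fold lower at D2.

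Myc, Jun, Junb, Ier2 and Dusp1 fell too, which added transcription factors and a phosphatase that acts back on the signal. Egr1, an early growth response factor, is shown here for its promoter and was picked after its values were seen: it stood at 8.95, 8.27 and 10.36 at D2 and at 14.30, 14.72 and 13.71 at D0, with the D2 array of slide 2 the highest of its day. Dusp5, a phosphatase that inactivates ERK in the nucleus, was at 5.85, 5.93 and 6.52 at D2 and at 10.33, 10.91 and 10.80 at D0 (log2 change -4.58 ± 0.21, SE, adjusted p = 5.7e-09). It was detected on 1 D2 array and on all D0 arrays.

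Promoters of RefSeq (rat assembly GRCr8, 250 bases before to 50 after each start) were searched on both strands for 13 motifs, each in the list it is known for, and the 3 motifs shown were chosen after the counts were seen. The CArG box, which binds serum response factor, occurred in 5 of 17 immediate early promoters (29.4%), against 1.64% of all 27457 promoters. In the whole list 24 of 26 measured genes were called lower. The 5 with the box, all called lower, were Egr1, Dusp5, Klf6, Zfp36 and Egr2. The promoters of the 2 with the largest change are printed, with CArG boxes in capitals: Egr1 at chr18:26736828-26737127 on the plus strand, with boxes starting 105 and 83 bases before the start, and Dusp5 at chr1:262543524-262543823 on the plus strand, with adjoining boxes 82 and 72 bases before it and a match to the NF-kB site that overlaps the box farther from the start.
Egr1: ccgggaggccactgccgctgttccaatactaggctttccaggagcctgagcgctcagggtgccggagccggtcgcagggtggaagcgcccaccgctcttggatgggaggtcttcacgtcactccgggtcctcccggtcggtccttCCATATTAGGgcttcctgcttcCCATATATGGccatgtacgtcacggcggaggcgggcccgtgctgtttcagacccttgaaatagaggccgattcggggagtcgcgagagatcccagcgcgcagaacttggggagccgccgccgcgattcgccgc
Dusp5: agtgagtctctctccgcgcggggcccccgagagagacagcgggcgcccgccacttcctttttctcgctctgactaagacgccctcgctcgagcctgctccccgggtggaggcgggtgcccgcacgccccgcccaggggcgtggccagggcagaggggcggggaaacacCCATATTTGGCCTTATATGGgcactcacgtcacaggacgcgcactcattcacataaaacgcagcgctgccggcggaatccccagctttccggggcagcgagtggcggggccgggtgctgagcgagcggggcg
A match is a description of the sequence and was not tested as a site in use.

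Cytokine and chemokine genes fell with them. Of 44 NF-kB response, cytokine and chemokine genes, 28 fell, 3 rose and 13 did not pass (median log2 change -1.50), and 2 of those called lower were undetected on both days. Cxcl3, a neutrophil-attracting chemokine, was at 7.0, 7.21 and 6.57 at D2 and at 15.11, 14.81 and 14.90 at D0, a 259-fold lower level (log2 change -8.01 ± 0.23, SE, adjusted p = 1e-10). Cxcl2, its close relative, was at 8.18, 7.52 and 6.44 at D2 and at 13.11, 13.50 and 14.04 at D0. Cxcl1 was at 11.02, 10.41 and 9.11 at D2 and at 15.43, 15.40 and 15.24 at D0 (log2 change -5.18 ± 0.33, SE). In all 3 chemokine genes the D2 array of slide 2 was the lowest, and no D2 array reached any D0 array. Csf2, the growth factor GM-CSF that alveolar macrophages need to clear surfactant, was lost from detection, at least 24.1-fold lower at D2, and its D0 arrays ranged widely, from 9.56 to 12.30. Il33, an alarmin released by damaged epithelium, fell by 4.49 ± 0.33 (SE) on its bright probe, while a second probe was undetected.

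The NF-kB site, searched as GGG, any 2 bases and TTTCC, occurred in 10 of 31 promoters of the list (32.3%), against 1.51% of all promoters. In the whole list 28 of 44 measured genes were called lower. Of the 10 with a site 9 were called lower, and no test was made between these counts. Printed are the promoters of the 2 such genes that fell most, with the sites in capitals: Cxcl2 at chr14:17467206-17467505 on the minus strand, with sites starting 74 and 54 bases before the start, and Cxcl1 at chr14:17479272-17479571 on the minus strand, with sites 102 and 84 bases before it. The first site of Cxcl1 lies on the opposite strand, and a match to the glucocorticoid receptor sequence ACANNNTGT overlaps a site of this gene.
Cxcl2: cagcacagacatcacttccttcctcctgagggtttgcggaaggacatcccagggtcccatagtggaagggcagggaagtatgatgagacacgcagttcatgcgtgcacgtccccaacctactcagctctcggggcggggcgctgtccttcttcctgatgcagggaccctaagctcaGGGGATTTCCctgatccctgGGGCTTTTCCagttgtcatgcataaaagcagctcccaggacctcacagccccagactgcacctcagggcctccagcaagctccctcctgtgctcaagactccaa
Cxcl1: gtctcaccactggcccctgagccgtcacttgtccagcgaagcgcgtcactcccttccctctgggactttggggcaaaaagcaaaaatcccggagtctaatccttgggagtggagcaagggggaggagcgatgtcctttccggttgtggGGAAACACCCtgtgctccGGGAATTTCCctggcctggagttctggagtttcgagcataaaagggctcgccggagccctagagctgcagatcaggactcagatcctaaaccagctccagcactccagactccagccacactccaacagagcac
The 3 genes that rose were Csf1, the growth factor of macrophages, at 11.58, 11.20 and 10.67 at D2 and 7.74, 7.49 and 7.67 at D0 (log2 change 3.52 ± 0.24, SE, adjusted p = 1.8e-07), Ccl7, a monocyte chemokine, and Cxcl11, a chemokine induced by interferon. The D2 arrays of Cxcl11 overlapped those of D0, and its call was lost under 9 alternative settings.

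Class II antigen presentation, which AT2 cells carry as well as macrophages, also fell. Of 10 measured genes 7 fell, 1 rose and 2 did not pass (median log2 change -1.28), and 1 of those called lower was undetected. The gene that rose was Ctss, a lysosomal protease that trims the invariant chain, and its call was lost under 4 settings. Cd74, the invariant chain, was at 9.75, 10.14 and 9.58 at D2 and at 14.34, 14.31 and 14.35 at D0 (log2 change -4.51 ± 0.20, SE, adjusted p = 4.4e-09). RT1-Da and RT1-Ba, chains of the class II molecules of the rat, fell by 4.07 ± 0.26 and 3.79 ± 0.17 (SE). Ciita, the master regulator of class II genes, was called lower but detected on none of the D2 arrays and on 1 D0 array, at log2 values of 4.41 to 4.67 at D2 and 5.12 to 6.71 at D0, and is given no fold.

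Secreted defence proteins made up several of the largest changes of the array. Of 27 measured, 14 fell, 1 rose and 12 did not pass. Retnla, a resistin-like secreted protein, was lost from detection, at 5.55, 6.15 and 5.93 at D2 and at 13.81, 14.27 and 14.44 at D0, which makes it at least 230-fold lower (adjusted p = 1e-10). Defb4, an antimicrobial peptide, was at 9.39, 9.21 and 8.23 at D2 and at 15.63, 15.57 and 15.42 at D0, and Chi3l1, a chitinase-like protein, fell by 6.19 ± 0.23 (SE). The exception was Wfdc1, a secreted protein with a whey acidic protein domain, and it was also the largest rise among genes detected on both days. It stood at 14.49, 14.55 and 14.53 at D2 and at 7.04, 8.77 and 6.42 at D0 (log2 change 7.11 ± 0.39, SE, adjusted p = 2.4e-08). The D2 arrays were nearly equal (SD 0.03), while the D0 arrays ranged around the limit of detection and 2 of the 3 were detected.

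Of 20 genes responsive to glucocorticoids or cAMP 15 fell and 1 rose (median log2 change -2.32). One of those called lower, Nr4a1, was undetected on both days. The gene that rose was Scnn1a, a subunit of the epithelial sodium channel, and its call was lost under 8 settings. Per1, a defining marker of the list, did not pass, at log2 changes of 0.27 to 0.72 over the alternative settings. Errfi1, a feedback inhibitor of the EGF receptor, was at 10.28, 9.85 and 9.94 at D2 and at 14.40, 14.21 and 14.25 at D0 (log2 change -4.26 ± 0.21, SE, adjusted p = 1.1e-08). Pdk4, a kinase that restrains glucose oxidation, fell by 4.52 ± 0.45 (SE), Sik1, a kinase induced by cAMP, by 3.34 ± 0.18 and Klf9, a glucocorticoid-induced factor, by 2.96 ± 0.16 (SE). Pdk4 varied most at D0, from 9.78 to 12.41, with both extremes above all D2 arrays. Of 13 clock genes 6 fell and none rose. Nr1d1, the repressor that shapes the clock cycle, was lost from detection, at least 38.6-fold lower at D2, and Nfil3, a partner repressor, fell by 3.18 ± 0.26 (SE). The time of day of the isolation is not given in the sources used here, and its part in these values was not tested.

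Of 28 genes of EGF family ligands, receptors and feedback, 14 fell, 5 rose and 9 did not pass (median log2 change -0.73). Ereg, an EGF receptor ligand, was at 8.13, 7.24 and 7.19 at D2 and at 11.71, 11.35 and 11.90 at D0, and Areg and Hbegf, further ligands, fell by 2.73 ± 0.26 and 2.35 ± 0.31 (SE). Tgfa, another ligand, did not pass (log2 change -0.29, adjusted p = 0.346). Dusp6, the ERK phosphatase of the cytoplasm, fell by 3.19 ± 0.20 (SE) beside Dusp5 and Errfi1. Kit, a receptor tyrosine kinase, was gained, at 8.06, 7.77 and 8.43 at D2 and undetected at D0, and Pdgfa, a ligand for mesenchymal cells, rose by 1.23 ± 0.17 (SE). Vegfa, a ligand for endothelium, and Fgfr3, a fibroblast growth factor receptor, rose by 1.10 ± 0.23 and 0.97 ± 0.14 (SE). Egfr, the receptor itself, was called higher at 7.95, 7.67 and 7.38 at D2 and 6.95, 7.47 and 6.54 at D0, but its days overlapped and the call was lost under 11 settings. The count of genes that rose ran from 2 to 6 over the settings.

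Of 34 actin and contractile genes 13 rose, 4 fell and 17 did not pass (median log2 change 0.33). The count that rose was 7 in a fit of the 6 arrays without a slide term and 19 with scaling to a common median, so that some settings bring the list near the share over all genes, and the single genes with the largest changes carry the description. Tagln, an actin-bundling protein of smooth muscle and spreading cells, was at 14.21, 14.24 and 13.85 at D2 and at 6.99, 7.84 and 7.79 at D0 (log2 change 6.56 ± 0.25, SE, adjusted p = 1.2e-09). Cald1, which binds actin and myosin, was detected on no D0 array and stood at 13.23, 12.76 and 12.79 at D2, at least 75.3-fold higher. Acta1, an actin isoform of muscle outside the list, was at 13.03, 12.93 and 12.05 at D2 and at 8.28, 8.19 and 8.56 at D0, and Myl9, a myosin light chain, was gained, at least 5.07-fold higher. All 4 genes were brighter on every D2 array than on any D0 array, where they were dim or undetected.

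The genes of this list that fell were Vil1 and Ezr, which build and anchor microvilli, at log2 changes of -3.56 ± 0.32 and -2.23 ± 0.21 (SE), Csrp1, at -1.05 ± 0.19, and Actb, whose other probes were not called and whose call was lost under 17 settings. Of 20 integrin and focal adhesion genes 10 rose and 3 fell (median 0.70). Parva, which links integrins to actin, rose by 1.98 ± 0.22, Itgb4, the integrin subunit of hemidesmosomes, by 1.36 ± 0.20, and Pxn, the adaptor paxillin, by 1.23 ± 0.18 (SE). Itga7, a laminin-binding integrin, was the largest fall of the list, at 6.21, 6.4 and 5.47 at D2 and 10.85, 10.54 and 10.59 at D0, and Cd44, a hyaluronan receptor, fell by 1.60 ± 0.18 (SE).

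Among fibrillar matrix and crosslinking genes 13 of 34 rose and none fell (median log2 change 0.59). Fn1, fibronectin, was at 14.17, 14.16 and 14.46 at D2 and at 8.39, 8.81 and 7.69 at D0, a 62.4-fold higher level (log2 change 5.96 ± 0.22, SE, adjusted p = 1e-09). Spp1, osteopontin, was at 13.75, 13.23 and 12.56 at D2 and at 7.90, 9.26 and 8.20 at D0. Of the 5 matrix genes gained, Tgfbi, a TGFB-induced matrix protein, was at least 28.9-fold higher, Ltbp2, a microfibril protein, at least 19.3-fold, and Loxl2 and Loxl1, lysyl oxidases that crosslink collagen and elastin, at least 16.1-fold and 5.75-fold. The fibrillar collagen genes Col1a1, Col1a2 and Col3a1 did not pass, at log2 changes of 1.91, -0.25 and -1.38 (adjusted p = 0.0984, 0.768 and 0.233). Col1a1 was nevertheless higher on every D2 array, at 9.02, 8.30 and 8.89, than on any D0 array, at 6.86, 6.87 and 6.75. It was detected on 2 D0 arrays. Col3a1, detected on no D2 array, was lower on every D2 array than on any D0 array. In fits on the 6 arrays, Col1a1 was called under 3 settings and Col3a1 under 2.

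Basement membrane genes rose in 7 of 11 cases with none falling (median 1.54), and 1 of the 7, Col4a5, was undetected on both days. Sparc, a collagen-binding glycoprotein, was at 13.45, 13.73 and 14.11 at D2 and at 10.56, 10.93 and 10.99 at D0, and Lamc1 and Agrn, the laminin gamma chain and agrin, rose by 2.55 ± 0.23 and 2.29 ± 0.21 (SE). Col4a3, a type IV collagen chain of the alveolar wall, was gained, at least 4.73-fold higher. Lamb2, another laminin chain, did not pass, at 12.53, 12.46 and 12.31 at D2 and 12.81, 12.87 and 12.24 at D0. Of 26 matrix protease and plasminogen genes 7 rose and 4 fell. Mmp11, a matrix metalloproteinase, was at 10.34, 10.48 and 10.95 at D2 and 5.71, 6.57 and 6.50 at D0, and its family members Mmp2, Mmp3 and Mmp7 were detected on at most 1 array and did not pass. Timp3 and Timp2, inhibitors of metalloproteinases, rose by 1.93 ± 0.22 and 1.67 ± 0.17 (SE), whereas Serpine2, an inhibitor of serine proteases, fell by 3.21 ± 0.26 (SE).

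Genes responsive to TGFB or to the mechanical regulators YAP and TEAD were mixed, with 9 of 29 higher and 6 lower. Tgfb2, the ligand, was at 13.35, 13.32 and 13.44 at D2 and at 9.56, 10.15 and 11.13 at D0 (log2 change 3.09 ± 0.26, SE, adjusted p = 9.3e-07). Ankrd1, a muscle ankyrin protein and target of YAP, was at 10.44, 9.98 and 10.53 at D2 and at 6.62, 7.34 and 8.86 at D0. For both genes the D0 array of slide 3 was the highest of its day. Nrep rose by 3.80 ± 0.28 (SE), and Fstl3, an antagonist of activin outside the list, by 4.24 ± 0.16 (SE). Those that fell included Id2 and Id3, inhibitors of transcription induced by BMP signals, by 2.06 ± 0.15 and 1.11 ± 0.18 (SE), and Bmp2, a BMP ligand, by 1.79 ± 0.35 (SE).

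**Figure D3:**
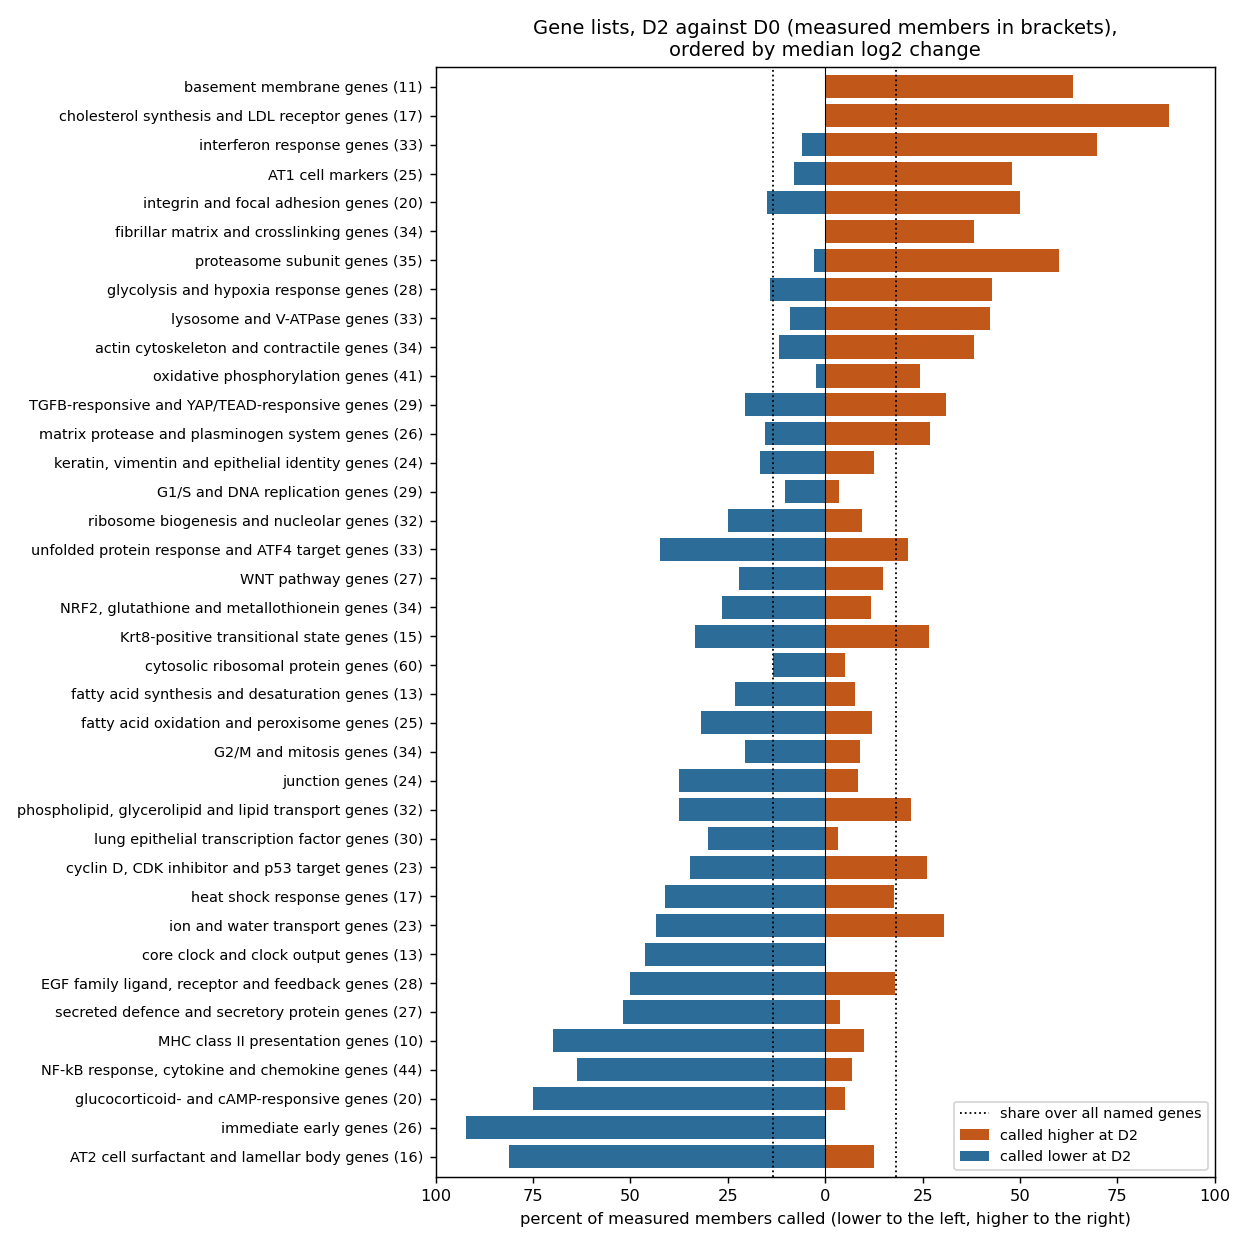
Share of the measured members of each of 38 gene lists called higher at D2 (orange, to the right) or lower (blue, to the left), in percent, with the number measured in brackets and the lists ordered by their median log2 change. Dotted lines give the shares over all named genes, 18.1% higher and 13.5% lower. Among genes detected on all 6 arrays, not drawn, the shares were 30.2% and 21.1%. Cholesterol, interferon and basement membrane genes lie far right of the line and AT2 and immediate early genes far left.

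Epithelial keratins and junctions did not move as a block. Of 24 keratin, vimentin and epithelial identity genes 3 rose and 4 fell. Krt7 was at 14.76, 15.08 and 14.64 at D2 and at 11.41, 11.51 and 11.62 at D0 (log2 change 3.31 ± 0.16, SE, adjusted p = 8.9e-09), and Krt17, a keratin of stressed epithelium, rose by 3.03 ± 0.27 (SE). Krt8 and Krt19, simple epithelial keratins, did not pass, at log2 changes of -0.19 and 0.05. Krt15, a basal keratin, was lost from detection, at 4.71, 5.51 and 5.21 at D2 and 7.62, 7.13 and 7.54 at D0, at least 2.15-fold lower, and Krt14, the third that rose, lost its call under 10 settings. A Krt8-positive state between AT2 and AT1 cells has been described in the mouse, and of 15 of its genes 4 rose and 5 fell. Those that rose were Krt7, Krt17, Mdk, a heparin-binding growth factor, and Itgb6, an integrin subunit that activates TGFB, at 13.78, 13.96 and 14.26 at D2 and 12.34, 13.03 and 13.26 at D0. Those that fell were Areg, Hbegf, Cldn4, Cdkn1a and Nupr1, of which Nupr1 lost its call under 12 settings. Of 24 junction genes 9 fell and 2 rose. Cldn3, a claudin of tight junctions, was at 11.58, 11.38 and 10.21 at D2 and 14.19, 14.18 and 14.01 at D0, and Cldn10, a claudin outside the list, was lost from detection, at least 38.1-fold lower. Tjp1, the scaffold ZO-1, did not pass (log2 change 0.35, adjusted p = 0.155), nor did Vim, the intermediate filament vimentin (0.33, adjusted p = 0.455). Tjp1 was called higher under 4 alternative settings, the values deposited by the authors among them.

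Of 30 lung epithelial transcription factor genes 9 fell and 1 rose (median log2 change -0.41). Klf5 was at 12.30, 12.32 and 11.98 at D2 and at 15.21, 15.33 and 15.33 at D0 (log2 change -3.09 ± 0.19, SE, adjusted p = 7.7e-08), and Foxp1, a forkhead repressor, was at 9.37, 8.92 and 9.46 at D2 and at 12.24, 12.28 and 12.31 at D0. Cebpa, a factor of mature AT2 cells, fell by 2.39 ± 0.32, and Ehf and Elf3, epithelial ETS factors, by 2.26 ± 0.25 and 2.00 ± 0.17 (SE). Foxa2, a pioneer factor of lung endoderm, did not pass, at 12.94, 12.83 and 13.16 at D2 and 12.87, 13.25 and 13.42 at D0. Of Nkx2-1 and Foxa2, both of which drive AT2 genes, neither was called, although a p that misses the threshold does not show equal levels.

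Of 23 ion and water transport genes measured, 7 rose and 10 fell. The epithelial sodium channel subunits Scnn1b and Scnn1g were at 11.46, 11.78 and 11.71 and at 10.45, 10.57 and 10.10 at D2, against 8.73, 8.47 and 8.25 and 7.35, 7.16 and 7.47 at D0. Aqp4, a water channel, rose by 3.72 ± 0.44 (SE), with the D2 array of slide 2 the highest. Kcnq1, a potassium channel, fell by 2.53 ± 0.22 (SE), and Slc26a9, an anion transporter, was lost, at least 3.40-fold lower. Hhip, an inhibitor of hedgehog signals in AT2 cells and on no list, was also lost, at 4.86, 4.78 and 5.38 at D2 and 11.99, 12.77 and 11.72 at D0, at least 56.8-fold lower.

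Interferon response genes rose in 23 of 33 cases, with 2 lower and 8 not passing (median log2 change 1.11), and 1 call in each direction was of an undetected gene. Oasl2, a member of the oligoadenylate synthetase family, was at 11.57, 10.52 and 10.65 at D2 and at 6.98, 7.49 and 6.37 at D0 (log2 change 3.97 ± 0.38, SE, adjusted p = 3.4e-06). Rtp4, a chaperone induced by interferon, was at 12.76, 12.24 and 12.16 at D2 and at 8.75, 8.95 and 8.27 at D0. Mx2, an antiviral GTPase, was at 11.53, 10.05 and 9.41 at D2 and at 7.33, 7.52 and 7.03 at D0 (adjusted p = 0.00239). In all 3 genes the first D2 array was the highest, by most in Mx2, and every D2 array was above every D0 array. Usp18, a protease that limits the response, was gained, at least 3.07-fold higher, and Lgals3bp, a secreted glycoprotein, rose by 2.80 ± 0.20 (SE). Irf1, a regulator of the response that is itself induced early, fell by 1.09 ± 0.28 (SE). Ifit3 and Isg15, further members of the list, were undetected on both days and not called. Ifit1, also undetected, was called lower, a call lost under 14 settings.

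The interferon-stimulated response element (ISRE), searched as GAAA, any 2 bases and GAAA, occurred in 18 of 26 promoters of the list (69.2%), against 3.77% of all promoters. In the whole list 23 of 33 measured genes were called higher and 2 lower. Of the 18 with the element 13 were called higher and none lower, and no test was made between these counts. The 2 with the largest change are printed with the element in capitals: Oasl2 at chr12:47383136-47383435 on the minus strand, where it lies on the opposite strand and starts 151 bases before the start, and Lgals3bp at chr10:104127799-104128098 on the minus strand, 50 bases before the start.
Oasl2: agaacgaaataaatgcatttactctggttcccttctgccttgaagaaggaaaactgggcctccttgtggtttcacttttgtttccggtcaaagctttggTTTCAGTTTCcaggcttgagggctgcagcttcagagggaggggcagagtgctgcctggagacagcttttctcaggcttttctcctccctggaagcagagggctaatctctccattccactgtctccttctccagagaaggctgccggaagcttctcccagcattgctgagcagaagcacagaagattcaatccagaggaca
Lgals3bp: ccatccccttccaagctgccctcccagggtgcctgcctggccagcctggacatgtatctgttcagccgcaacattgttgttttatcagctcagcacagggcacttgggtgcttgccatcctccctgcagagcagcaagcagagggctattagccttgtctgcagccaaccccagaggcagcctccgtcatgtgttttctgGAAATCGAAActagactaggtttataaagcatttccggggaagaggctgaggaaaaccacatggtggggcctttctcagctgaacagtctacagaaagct
The largest rises of the proteasome list were of subunits known to be induced by interferon: Psme2, Psmb10, Psmb9 and Psmb8 rose by 1.48 ± 0.17, 1.23 ± 0.18, 1.11 ± 0.21 and 1.06 ± 0.17 (SE). Of all 35 proteasome genes 21 rose and 1 fell (median 0.52), a count that ran from 3 to 33 over the alternative settings.

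Cholesterol synthesis rose nearly throughout. Of 17 genes of the pathway and the LDL receptor, 15 rose (88.2%) and none fell, with a median log2 change of 1.31. Nsdhl, a sterol dehydrogenase, was at 11.15, 10.85 and 10.96 at D2 and at 9.09, 9.38 and 9.23 at D0 (log2 change 1.75 ± 0.17, SE, adjusted p = 3.9e-06). Fdps, which makes farnesyl diphosphate, was at 13.09, 13.17 and 13.18 at D2 and at 11.41, 12.06 and 11.32 at D0, and Dhcr7, Fdft1 and Sc5d, enzymes of later steps, rose by 1.59 ± 0.23, 1.56 ± 0.24 and 2.13 ± 0.32 (SE). The middle D0 array was the highest of its day for Fdps, Dhcr7, Fdft1 and Sc5d alike. The sterol regulatory element, searched as TCACNCCAC, was in none of 13 promoters of the list, against 1.13% of all promoters, which says only that these letters are not in these windows.

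Fatty acid synthesis did not follow. Of 13 genes 3 fell and 1 rose: Scd, a desaturase, was at 11.72, 11.32 and 11.75 at D2 and at 14.24, 15.09 and 14.44 at D0, and Acly and Srebf1, which make acetyl-CoA and regulate the pathway, fell by 1.64 ± 0.17 and 1.55 ± 0.14 (SE), while Fads2, another desaturase, rose by 1.67 ± 0.27 (SE). Of 32 genes of phospholipid and glycerolipid synthesis and lipid transport 12 fell and 7 rose. Acsl4, which activates long fatty acids, fell by 2.98 ± 0.22 and Abca1, a lipid exporter, by 2.68 ± 0.17 (SE), whereas Vldlr, a lipoprotein receptor, rose by 2.27 ± 0.26 (SE). Of 25 fatty acid oxidation and peroxisome genes 8 fell and 3 rose. Acot1, an acyl-CoA thioesterase, fell by 3.03 ± 0.39 (SE), and Ppargc1a, the coactivator of mitochondrial genes, was lost, at least 3.15-fold lower.

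Of 28 glycolysis and hypoxia response genes 12 rose and 4 fell (median log2 change 0.43). Eno1, enolase, was at 9.54, 10.06 and 9.18 at D2 and at 6.96, 7.27 and 5.92 at D0, Aldoa, aldolase, rose by 1.49 ± 0.15 on one probe and 1.53 on another, and Slc16a3, the lactate exporter, by 2.41 ± 0.19 (SE). The genes that fell were not glycolytic enzymes apart from Hk2, a hexokinase: Adm, a vasodilator peptide, was at 6.67, 6.46 and 7.17 at D2 and at 13.76, 13.28 and 13.06 at D0 (log2 change -6.60 ± 0.33, SE, adjusted p = 1.3e-08), and Ankrd37 and Ndrg1, genes induced by hypoxia, fell by 1.59 ± 0.30 and 1.05 ± 0.24 (SE). The glucose transporter genes Slc2a1 and Slc2a3 were undetected or detected on 1 array and were not called. Of 33 lysosome and V-ATPase genes 14 rose and 3 fell. Ctsd, a lysosomal protease, was at 12.63, 13.39 and 11.74 at D2 and at 9.97, 10.91 and 9.05 at D0, and Psap, the saposin precursor, and Ctsk rose by 1.69 ± 0.19 and 1.58 ± 0.17 (SE). The lysosome count ran from 5 to 21 over the settings.

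Stress and cell cycle genes were called in both directions. Of 33 genes of the unfolded protein response and ATF4 targets 14 fell and 7 rose: Ppp1r15a, which restores translation after stress, was at 8.95, 8.63 and 8.28 at D2 and at 13.53, 13.70 and 13.45 at D0, and Atf4, Trib3 and Slc7a5 fell, at log2 changes of -2.90 ± 0.15, -4.40 ± 0.42 and -3.27 ± 0.49 (SE), whereas the chaperone Pdia4 rose by 1.38 ± 0.16 (SE). Of 17 heat shock genes 7 fell and 3 rose, with Dnajb1, a cochaperone, at 12.45, 12.23 and 11.74 at D2 and 14.99, 14.59 and 14.24 at D0. Cryab, a small heat shock protein, went against these with a rise of 1.97 ± 0.23 (SE). The unfolded protein response genes that rose ran from 2 to 12 over the settings. Of 29 G1/S genes 1 rose and 3 fell, and of 34 G2/M genes 3 rose and 7 fell. These counts moved with the settings, from 0 to 10 higher for G1/S genes and from 1 to 7 higher and 3 to 11 lower for G2/M genes. The G1/S shares, 3.45% higher and 10.3% lower, lay below the 18.1% and 13.5% over all named genes. For G2/M genes, 8.82% higher also lay below, and 20.6% lower was near the 21.1% of genes detected on all 6 arrays. Pcna, the clamp of DNA polymerase, was at 12.88, 12.85 and 12.61 at D2 and at 15.02, 15.06 and 15.21 at D0. Of 23 cyclin D, CDK inhibitor and p53 target genes 6 rose and 8 fell. Cdkn2b, the inhibitor p15, was gained, at 9.71, 10.16 and 9.98 at D2, at least 9.55-fold higher, while Cdkn1a, the inhibitor p21, and the p53 targets Mdm2 and Gadd45a fell, at log2 changes of -2.12 ± 0.22, -1.59 ± 0.20 and -3.44 ± 0.18 (SE). Other p53 targets rose, Sesn1 by 1.25 ± 0.30, Perp by 1.2 ± 0.20 and Ei24 by 1.13 ± 0.15 (SE).

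Genes that crossed the detection threshold between the days were read from the detection p, which depends on no normalization. A probe was gained where it was detected on all 3 D2 arrays and on no D0 array, and lost where the reverse held. Of all probes 401 (1.78%) were gained and 177 (0.786%) were lost, and of named genes 2.1% were gained and 0.907% lost. Of these probes, 147 gained and 79 lost ones also stayed undetected on every array of their dimmer day at a looser threshold of 0.05. The rest had a detection p under 0.05 on some array of that day, so crossing the threshold does not show that they were absent there. All 177 lost probes were also called by limma, and 344 of the 401 gained ones were. The lowest detected log2 signal, 6.29 to 6.38 at D2 against 6.50 to 7.04 at D0, moves with the larger number gained, and its part in that number was not tested. Without the D0 array of slide 3, which had the fewest detected probes, 418 probes were gained and 331 lost, a smaller difference between both numbers. The lower bound of the fold had a median of 1.53 among probes gained and called and of 3.25 among those lost and called. It was at least 2-fold for 100 gained and 144 lost probes, and at least 8-fold for 13 and 29.

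The gained gene with the largest bound after Cald1 was Scn3b, a sodium channel subunit, at 12.07, 12.14 and 12.07 at D2, at least 42.2-fold higher. After Tgfbi, Ltbp2 and Loxl2, given with the matrix genes, Sgcd, a sarcoglycan of muscle membranes, and Gja3, a connexin, were at least 16.1-fold and 15.1-fold higher, and Cyp1b1, a cytochrome P450 induced by aryl hydrocarbons, was at 9.92, 9.56 and 9.99 at D2. Cyp1b1 stood at a mean of 12.49 at D8, above its D2 values, while Sgcd averaged 9.13 at D8, below them. Of the lost genes, Scgb3a1, a secretoglobin, was at 6.02, 6.26 and 4.98 at D2 and at 12.15, 11.83 and 12.51 at D0, at least 57.1-fold lower. Dlk1, a membrane ligand, and Slit3, a guidance ligand, were at least 16.3-fold and 15.1-fold lower. Bpifa1, a secreted airway protein, was at least 17.8-fold lower.

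The gains and losses of detection were followed into the later arrays. Of the 177 lost probes, 147 were detected on no array at D4, 138 at D6 and 142 at D8, and 6 were detected on all 3 D8 arrays. Of the 401 gained probes, 286 were detected on all 3 arrays at D4, 225 at D6 and 220 at D8, and 54 on no D8 array. The shares have different definitions, all arrays for a gain and no array for a loss, and no test was made between them. The D8 mean of Retnla was 5.68 and that of Hhip 4.44, below detection, whereas Nr1d1 stood at 7.65 and Fos at 8.48 at D8, above their D2 levels.

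**Figure D4:**
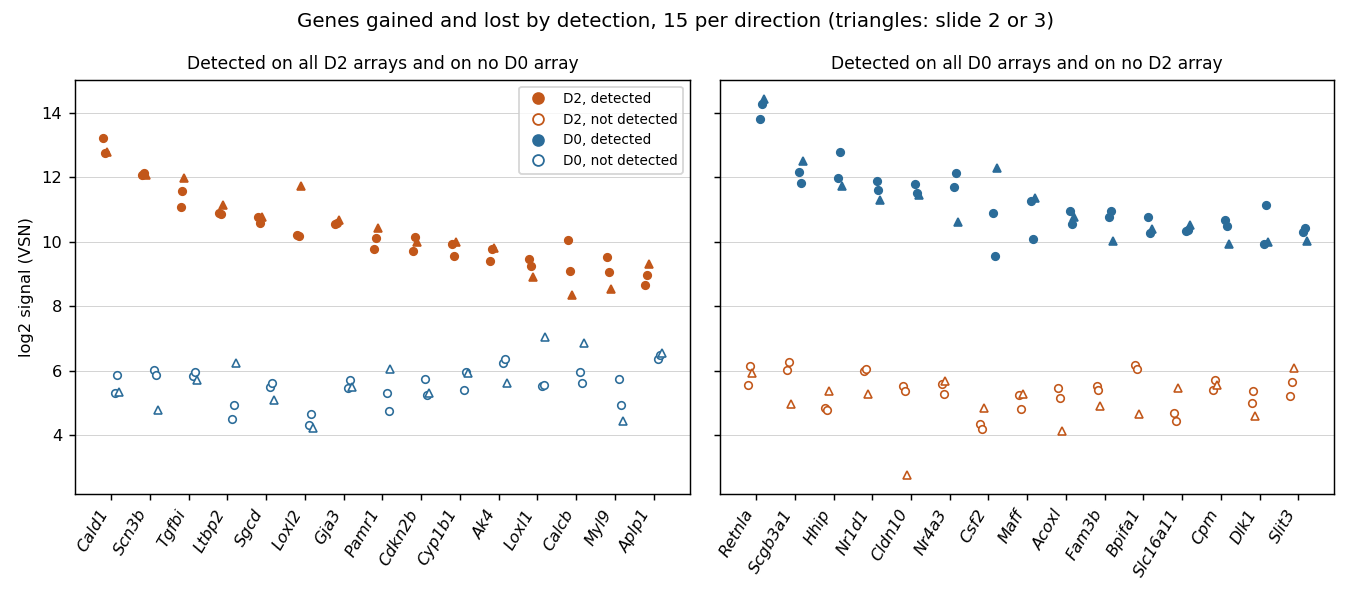
Log2 signal after VSN of the 15 genes with the largest lower bound of the fold among those gained (left panel) and lost (right panel), with D2 in orange on the left of each pair and D0 in blue on the right. Filled symbols are arrays on which the probe was detected and open symbols arrays on which it was not, with triangles for slides 2 and 3; the gained genes reach 13.23 (Cald1) and the lost ones 14.44 (Retnla).

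Marker lists of other cell types were measured beside these results, and their part in them was not tested. Of 19 macrophage markers 4 rose and 2 fell, counts that ran from 0 to 6 and from 0 to 2 over the settings, 3 were undetected, and the summed linear signal was 17373 to 41485 on D2 arrays and 31904 to 40552 on D0 arrays. Ptprc, the pan-leukocyte marker, did not pass, at 8.11, 7.89 and 7.03 at D2 and 8.15, 8.18 and 6.85 at D0. Of 14 neutrophil markers 4 fell, with sums of 625 to 958 at D2 and 1662 to 2173 at D0, and 9 were undetected, the defining markers Mpo and S100a9 among them. The 4 that fell were S100a8, Il1r2, Retnlg and Mmp9. S100a8 and Il1r2 were called under every setting, whereas Retnlg lost its call under 1 and Mmp9 under 8. Of 16 lymphocyte markers 6 fell and 1 rose, with sums of 993 to 1568 at D2 and 1516 to 1973 at D0. A further count of 6 were undetected, among them Gzma and Klrd1, which were called lower. Hbb-b1, a globin of red cells, fell by 3.22 ± 0.49 (SE), and the erythroid sum was 6093 to 10705 at D2 and 40032 to 69461 at D0, with 1 of 11 markers called and 6 undetected.

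Of 18 fibroblast and smooth muscle markers 12 were undetected, 2 rose and 1 fell, and the sum of 17426 to 23596 at D2 against 3039 to 3976 at D0 was carried by Tagln. Wt1, called higher, and Mfap4, called lower, were both undetected on all 6 arrays, and their calls were lost under 17 and 13 settings. Of 13 endothelial markers 10 were undetected, Cdh5 and Flt1 among them, and 1 rose and 2 fell, with sums of 2266 to 2570 at D2 and 2104 to 3437 at D0. Plvap, called lower, was among the undetected. Of 12 airway markers 6 fell and 2 rose, with sums of 49623 to 69409 at D2 and 62400 to 73307 at D0. Scgb1a1, the defining marker of club cells, was bright on both days and did not pass, at 14.86, 15.26 and 14.60 at D2 and 15.56, 15.47 and 15.57 at D0, whereas Scgb3a2, a related secretoglobin, was at 6.77, 6.66 and 5.49 at D2 and 12.09, 12.11 and 12.98 at D0. Of 5 mesothelial markers 2 were called higher, Msln, mesothelin, by 2.10 ± 0.37 (SE) and the undetected Wt1, and 3 were undetected, with sums of 25436 to 35242 at D2 and 23981 to 30918 at D0. The mesothelial sum was carried by Krt19, a simple epithelial keratin also on that list. It was at 14.78, 15.07 and 14.60 at D2 and 14.90, 14.53 and 14.86 at D0.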

How the data were processed

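RNA was hybridized to Illumina RatRef-12 arrays. The raw values are intensities that the authors made with BeadStudio as bead averages per probe and deposited without normalization, with a detection p-value per probe from the same software. The log2 values that the authors deposited rise with the raw signal through a shift and a scale before the log, and served as an alternative. The submitters' processing notes name R 2.11.1 and limma, and the methods name VSN through LUMI. VSN was refitted here to all 15 arrays. The software was R 4.3.3, limma (version 3.58.1) and statmod (version 1.5.0). limma fitted day and slide group to all 15 arrays (9 residual degrees of freedom), and D2 minus D0 was adjusted by Benjamini-Hochberg over all probes at 0.05, with no filter on dim probes. The fit was tested on simulated data. Probes with 1 gene in the probe table were 13793 of 22523, for 13337 genes, and each gene was read on its brightest probe. Where a probe was undetected on its dimmer day, dim signals were raised to the lowest detected value of their array, and the fold is a bound.

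The named genes were the 15 largest changes per direction among those detected on both days, the 15 largest bounds among those gained and lost, up to 5 called members per list and direction, uncalled members among the first 3 of a list, and the genes the study names. The 46 gene lists held 1290 symbols, 1046 of them with a probe. The comparison, lists and named genes were chosen with earlier results of these data known. A few further genes are named as uncalled, undetected or called members of short lists. Alternatives were other normalizations, filters on dim probes, other slide terms, fits on the 6 arrays, stricter thresholds, other detection rules, the mean of the probes of a gene and leaving out each array.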

Additional observations from a re-analysis of the deposited data

How the results depend on the processing

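No probe called here was called in the opposite direction under any alternative. Of the 22523 probes, 5750 were called with slide group as a block on all 15 arrays, and 4924 with slide at 3 levels. The count was 2738 in a fit of the 6 arrays without a slide term, 3760 with VSN and fit on the 6 arrays, and 3118 where a log2 change of at least 1 was also asked. The 3175 higher probes became 1401, 2016 and 1627 in these settings and the 2575 lower ones 1337 in the first and 1491 in the last. Scaling to a common median gave 4821 higher and 1826 lower, or 72.5% higher, against 55.2% here, and moved the median change of probes detected on all 6 arrays to 0.399, against 0.105. Leaving out 1 array gave 2635 to 3139 higher and 2141 to 2474 lower probes. Gained probes were 650 where 2 of 3 arrays sufficed. Lost probes were 353 by that rule and 384 on slide 1 alone. Leaving out 1 array gave 418 to 543 gained and 186 to 331 lost probes, the last without the D0 array of slide 3. Of 322 named genes that were called, 237 were called under every alternative, 33 lost the call under 1 to 3 and 52 under more. Named genes not called here became called in 61 pairs of gene and alternative. Of the gene lists, the median changed sign under some setting for the transitional, junction, keratin, G1/S, ribosomal protein, ribosome biogenesis, unfolded protein response, fatty acid oxidation, redox and mesothelial lists. Scaling to a common median brought the median of the glucocorticoid and cAMP list to -0.99, against -2.32 here, of the NF-kB list to -0.82, against -1.50, of the MHC class II list to -0.52, against -1.28, of the defence list to -0.22, against -0.74, of the EGF list to -0.18, against -0.73, of the clock list to -0.12, against -0.56, of the ion transport list to -0.11, against -0.52, and of the lung transcription factor list to -0.06, against -0.41. The fibrillar matrix median was 0.28 without the D2 array of slide 2 and 0.91 without the D0 array of slide 3, against 0.59. Interferon genes that rose were 15 in the fit of the 6 arrays without a slide term, against 23. The cause of these differences was not tested. No paired analysis was possible because the labels give no replicate numbers.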

Other observations

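Ribosomal, mitochondrial and WNT genes were measured in the same comparison. Of 60 cytosolic ribosomal protein genes 3 were called higher and 8 lower, and 49 did not pass (median log2 change -0.20). The higher count ran to 12 and the lower one from 0 to 20 over the alternative settings. Rpl3, a protein of the large subunit, was at 14.91, 15.28 and 14.76 at D2 and at 15.40, 15.35 and 15.27 at D0. Of 41 oxidative phosphorylation genes 10 were called higher and 1 lower, a higher count that ran from 0 to 32. Detection on all 6 arrays held for 38 of the 41, and the 24.4% called higher lay below the 30.2% of all genes so detected. Ndufs1, a subunit of complex I, was at 11.63, 11.67 and 11.49 at D2 and at 10.58, 10.76 and 10.50 at D0 (log2 change 0.98 ± 0.14, SE, limma adjusted p = 0.00012). Of 32 ribosome biogenesis genes 8 were called lower and 3 higher, with Ncl, nucleolin, at 11.17, 10.63 and 10.90 at D2 and 12.42, 12.43 and 12.34 at D0. Here 29 of the 32 were detected on all 6 arrays, and the 25% called lower was near the 21.1% of all genes so detected.

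Of 34 NRF2, glutathione and metallothionein genes 9 were called lower and 4 higher, and the higher count ran from 1 to 14 over the alternative settings. Hmox1, heme oxygenase, was at 12.36, 12.22 and 11.36 at D2 and at 14.36, 14.01 and 14.13 at D0, Sod2, the mitochondrial superoxide dismutase, fell by 2.42 ± 0.17 (SE), and Gstp1, a glutathione transferase, rose by 1.79 ± 0.20 (SE) on its brightest probe, while 1 of its other probes was undetected on both days. Of 27 WNT pathway genes 6 were called lower, 4 higher and 12 were undetected on both days. Fzd8 and Tcf7l1, a WNT receptor and a transcription factor of the pathway, fell, at log2 changes of -2.13 ± 0.18 and -1.71 ± 0.20 (SE), and Wnt4 and Porcn, a ligand and the enzyme that acylates ligands, rose by 1.28 ± 0.18 and 1.58 ± 0.29 (SE). Sqstm1, an autophagy receptor, gave probes that disagreed, at log2 changes of -1.45 and 0.93, both called, and -0.54 on its remaining probe, not called.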
